A study of Mus musculus with 10 samples.

Results

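The anti-Rtl1 miRNAs are mature miRNAs cut from the transcript that runs opposite to Rtl1 on mouse chromosome 12. They were chosen by name, as the rows of the deposited table for mmu-miR-127-3p, mmu-miR-127-5p, mmu-miR-136-5p, mmu-miR-136-3p, mmu-miR-337-3p, mmu-miR-337-5p, mmu-miR-431-5p, mmu-miR-433-3p, mmu-miR-434-3p and mmu-miR-434-5p (mmu marks mouse and is left out from here on). All 10 were present among 1340 mature miRNAs. Small RNA came from the RPE/choroid/sclera (the pigment epithelium, its vascular bed and the fibrous wall of the eye) taken at postnatal day 34 from C57BL/6J mice, which are wild type. Each animal had carried a -20 dioptre lens in front of one eye since postnatal day 24, that is for 10 days, with no lens on its fellow eye. Such a lens places the image behind the retina and drives growth toward myopia in young eyes. The 10 libraries are 5 left and 5 right eyes that share the title numbers 61, 64, 65, 66 and 68, and the labels do not say which eye wore the lens. Only right can be set against left, and if lens side varied between animals, this contrast would not show what the lens did. The labels do not say that libraries of a number come from one animal or separate preparations, so p-values measure the spread between these libraries.

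In the Dlk1-Dio3 imprinted domain, protein-coding genes such as Rtl1, a gene derived from a retrotransposon, are expressed from the paternal chromosome. The noncoding RNAs, including the anti-Rtl1 transcript and the large miRNA cluster further along, are expressed from the maternal one. Those anti-Rtl1 miRNAs that are copied from the strand directly opposite the Rtl1 mRNA match it fully and can direct its cleavage, a mechanism described in mouse embryos and placenta. The full match holds for 8 of the 10 members, as given below.

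All 10 miRNAs were matched to mature sequences from RefSeq (GRCm38.p6). The sequences are shown because no 2 members have the same seed, the bases 2 to 8 that pair with targets, given in capitals. For each of the 10, no other mature miRNA in the RefSeq table has that seed, which holds for 72.1% of the 1679 mature miRNAs there. They are listed in the order of the plus strand.
miR-337-5p: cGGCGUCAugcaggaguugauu
miR-337-3p: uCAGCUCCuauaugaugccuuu
miR-431-5p: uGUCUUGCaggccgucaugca
miR-433-3p: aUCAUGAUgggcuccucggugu
miR-127-5p: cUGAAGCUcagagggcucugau
miR-127-3p: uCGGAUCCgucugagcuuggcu
miR-434-5p: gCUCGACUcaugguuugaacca
miR-434-3p: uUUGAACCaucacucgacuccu
miR-136-5p: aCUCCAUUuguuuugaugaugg
miR-136-3p: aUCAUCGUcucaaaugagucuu

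The G and C share ran from 36.4% in both miR-136 arms to 59.1% in miR-127-3p, against a median of 50.0% over the 502 miRNAs analysed that have a sequence. All 10 are 21 or 22 bases long, so their lengths hardly differ. How well the library preparation captured each sequence was not measured. Orders of abundance and arm ratios below are therefore those of the deposited signal, and can differ from those in the tissue. They lie within 9570 bases on the plus strand, from miR-337-5p (chr12:109585818-109585839) to miR-136-3p (chr12:109595366-109595387).

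The name anti-Rtl1 holds literally for 8 of the 10. These 8 lie in the coding part of the Rtl1 exon (chr12:109590172-109595403, GENCODE M21, minus strand) and are complementary to the Rtl1 transcript over their whole length. Both miR-337 arms lie outside the GENCODE Rtl1 gene (chr12:109589193-109600330) and have no full match in its transcript, although the wider RefSeq gene span (chr12:109564900-109604418) covers them. The stretch of Rtl1 opposite miR-127-3p (chr12:109592888-109592909, minus strand) shows the match, with the complement of the seed in capitals.
Rtl1 opposite miR-127-3p: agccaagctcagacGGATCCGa

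**Figure D1:**
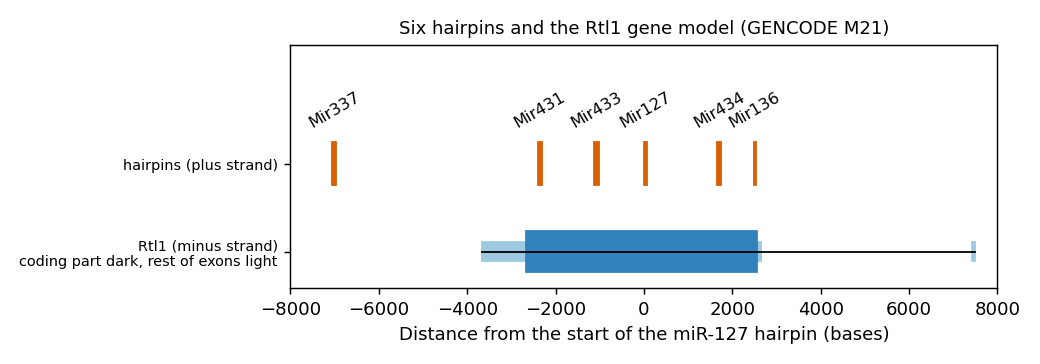
Positions of the 6 hairpins on the plus strand and of the Rtl1 gene model on the minus strand, as distance in bases from the start of the miR-127 hairpin. Mir431, Mir433, Mir127, Mir434 and Mir136 lie over the coding part of Rtl1 (dark), and Mir337 starts at -7057 bases, beyond the end of the gene model.

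The deposited values are a normalised signal with nearly equal sums in all libraries. At 98 of the top 100 ranks the libraries have almost one value (within 1 percent), so an abundant miRNA takes the value of the rank it reaches. The depth of the libraries is unknown, and no counting interval is given. Summed retina and neuron markers (miR-182-5p, miR-183-5p, miR-96-5p, miR-124-3p and miR-9-5p) stood at 1330 k in right eye 68, where k is 1000 units of signal, and at 189 to 473 k in the other 9 libraries. No marker of the 8 cell type lists was listed at 0 in any library, and the pigment epithelium markers miR-204-5p and miR-211-5p summed to 1959 to 1989 k. In a dissected tissue, fewer cells of a type and less RNA per cell cannot be told apart.

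One strand carried most of the signal. miR-127-3p, for which Bcl6 is a described target, made up 82.6% to 90.9% of the summed signal of the 10 miRNAs. The sum lay between 282289 (right eye 64) and 452814 (right eye 66), which is 2.38% and 3.81% of the library's signal. In left eyes miR-127-3p stood at 311768 in numbers 61, 64, 65 and 68 and at 403594 in number 66. In right eyes it stood at 311768 in 61 and 65, at 251975 in 64 and 68, and at 403594 in 66. These are only 3 values over 10 libraries, those of ranks 8, 9 and 10, and both eyes of number 66 held the highest. A change that did not carry miR-127-3p past a neighbour in rank cannot be seen in these data.

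The second most abundant member, miR-434-3p, ranked between 44 and 59. Its signal in left eyes was 22482 in number 61, 21427 in 64, 22482 in 65, 26150 in 66 and 30387 in 68. In right eyes it was 21427 in 61, 17084 in 64, 26150 in 65, 30387 in 66 and 32919 in 68. Both eyes of number 68 were at or above all others, right eye 64 was the lowest, and the sides overlapped. Its partner miR-434-5p, from the other arm of the hairpin, ranged from 3553 to 5278 with a median of 4514.

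The miR-136 arms were of similar abundance. For miR-136-3p the left eyes gave 4256 in number 61, 4256 in 64, 3850 in 65, 3976 in 66 and 7383 in 68. The right eyes gave 3976 in 61, 3454 in 64, 4816 in 65, 5521 in 66 and 7545 in 68. Both eyes of number 68 stood above the other 8 libraries. For miR-136-5p the left eyes gave 2428 in 61, 2428 in 64, 2473 in 65, 2428 in 66 and 4145 in 68, and the right eyes 2130 in 61, 1853 in 64, 2891 in 65, 3553 in 66 and 4367 in 68. Again the eyes of number 68 were the 2 highest and right eye 64 the lowest.

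The members with the partner arm outside the set were not raised in number 68. For miR-433-3p, which has HDAC6 as a described target, the left eyes gave 513 in number 61, 513 in 64, 486 in 65, 486 in 66 and 366 in 68. The right eyes gave 538 in 61, 529 in 64, 461 in 65, 452 in 66 and 432 in 68. Here both eyes of number 68 were the lowest. miR-431-5p, described as a regulator of Pax7 in muscle stem cells, ranged from 1688 in right eye 68 to 2537 in left eye 64 with a median of 2188.

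The remaining members were less abundant. miR-337-5p ranged from 649 in right eye 68 to 1108 in right eye 66 (median 904). miR-337-3p, from the same hairpin, ranged from 48.7 in right eye 64 to 103 in right eye 66 (median 66.1). miR-127-5p, the arm opposite miR-127-3p, ranged from 248 in left eye 65 to 392 in left eye 68 (median 289). The order by mean was miR-127-3p, miR-434-3p, miR-136-3p, miR-434-5p, miR-136-5p, miR-431-5p, miR-337-5p, miR-433-3p, miR-127-5p and miR-337-3p. Ranges over the 10 libraries overlapped between miR-136-3p and miR-434-5p, between miR-434-5p and miR-136-5p, between miR-136-5p and miR-431-5p, and between miR-433-3p and miR-127-5p. The other neighbours in this order had ranges that did not overlap.

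**Figure D2:**
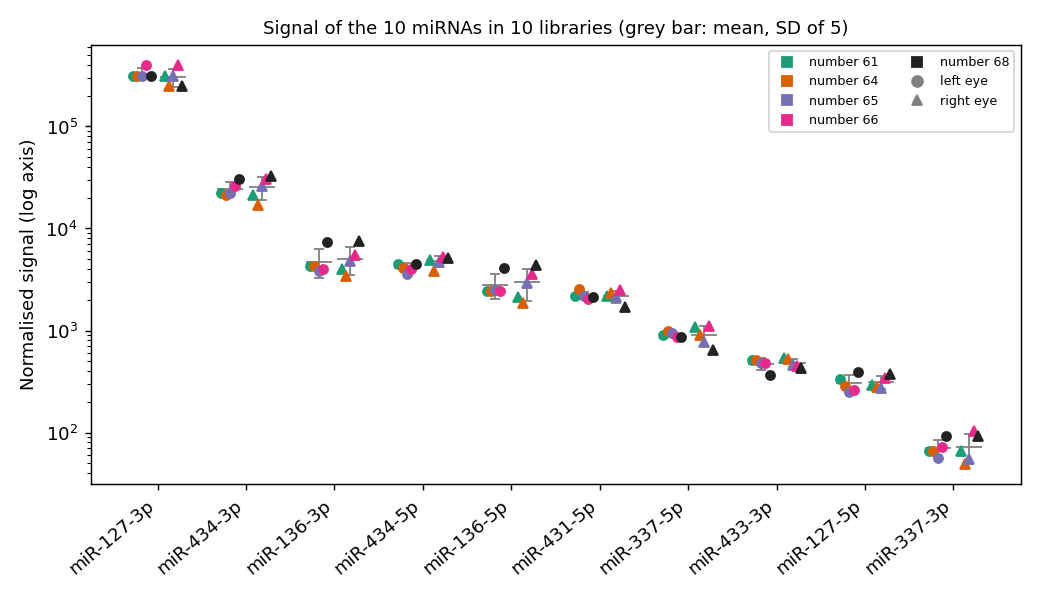
Normalised signal (log axis) of each miRNA in the 10 libraries, with circles for left and triangles for right eyes, colours for the shared number and grey bars for mean and SD of 5. miR-127-3p lies far above the others at 251975 to 403594, and number 68 (black) is at the top for miR-136-3p and at the bottom for miR-433-3p.

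Right and left eyes were compared to ask whether any member differed between sides. No member was called. On the log2(signal + 1) scale, which is used for all differences here and understates those of low signals, the right minus left difference ran from -0.12 for miR-127-3p to 0.20 for miR-434-5p. The 95% intervals of all 10 members lay within a 2-fold difference in either direction, as they did for 84.5% of all miRNAs tested. For miR-127-3p the rank steps can set the width of that interval.

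The test was limma with the number as a block and Benjamini-Hochberg adjustment over the 588 miRNAs with a mean signal of at least 10. It called 0% of them at an adjusted p of 0.05, and 2.21% (13 miRNAs) had an unadjusted p under 0.05, none of them a member. No member was higher in all 5 right eyes of the pairs, as 2.04% of the miRNAs were, or lower in all 5, as 0.85% were. The largest member difference was that of miR-434-5p, with left eyes at 4514, 4145, 3553, 3976 and 4514 and right eyes at 4953, 3850, 4701, 5278 and 5093 in the order of the numbers. The right eye was higher in 4 of 5 pairs, the sides overlapped, and the log2 difference was 0.20 (95% interval -0.02 to 0.43, limma adjusted p = 0.967). Left eyes averaged 4140 ± 404 and right eyes 4775 ± 558 (SD, n = 5 each). miR-127-3p, which averaged 330133 ± 41066 (left, SD, n = 5) and 306216 ± 62105 (right, SD, n = 5), was tied in 3 pairs and lower in the right eye in the other 2, with an interval of -0.30 to 0.05 (limma adjusted p = 0.967). The other 8 members had differences between -0.05 and 0.09, and each of those 8 turned direction when one number was left out, 5 of them without number 66. Over the 10 members 7 differences were above 0 with a median of 0.03, against 319 of 588 and a median of 0.02 over all miRNAs tested.

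**Figure D3:**
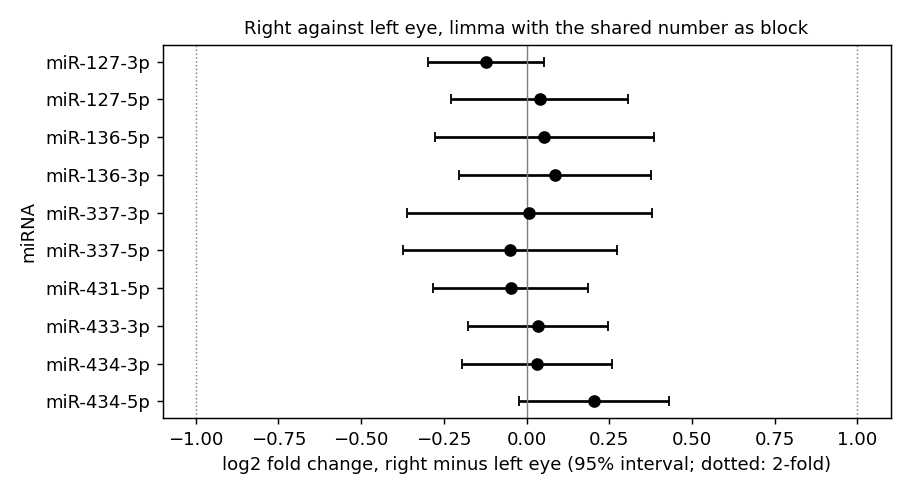
Log2 fold change of each member, right minus left eye, with its 95% interval from limma. All intervals include 0 and lie inside the dotted lines at a 2-fold difference.

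Single pairs moved in opposite directions. In number 64, 9 of the 10 members had less signal on the right than on the left (median log2 difference -0.22). In number 66, 8 of the 10 were higher in the right eye and 1 was tied, with a median of 0.37. In the same pairs, 51.7% (number 64) and 51.2% (number 66) of all 588 miRNAs were higher in the right eye, with medians of 0.03 in both. Numbers 61, 65 and 68 had 3, 5 and 5 members higher in the right eye and medians of 0, 0.07 and 0.02. Each pair is 1 library against 1, so these are values without a test, and numbers 64 and 66 were picked with their values known.

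The large miR-379 to miR-410 cluster of the same domain moved alongside in those pairs. Of its 49 members analysed, 41 were lower in right eye 64 (median -0.20) and 40 were higher in right eye 66 (median 0.23). In numbers 61, 65 and 68, 27, 31 and 15 of the 49 were higher in the right eye (medians 0.05, 0.13 and -0.12). Markers of other cell types also moved. Between left and right eye 66, striated muscle markers (miR-206-3p, miR-133b-3p, miR-1a-3p, miR-133a-3p) summed to 25.9 and 78.5 k, endothelial markers to 214 and 342 k, and erythroid markers to 34.96 and 59.7 k. Surface epithelium markers went the other way in this pair, from 201 to 24.7 k, as did retina and neuron markers, from 289 to 189 k. Fibroblast and smooth muscle markers summed to 901 and 1008 k, leukocyte markers to 14.4 and 18.2 k and pigment epithelium markers to 1980 and 1971 k. Between left and right eye 64, striated muscle markers summed to 79.3 and 46.3 k, endothelial to 214 and 198 k, erythroid to 51.7 and 39.7 k and surface epithelium to 245 and 205 k. Retina and neuron markers went the other way in this pair, from 294 to 364 k. Leukocyte markers summed to 15.5 and 16.0 k, fibroblast and smooth muscle to 842 and 836 k and pigment epithelium to 1969 and 1984 k. Over all libraries the striated muscle sum ran from 25.9 to 104 k in left and from 42.3 to 78.5 k in right eyes. The endothelial sum ran from 201 to 267 and from 198 to 342 k, and the erythroid sum from 34.96 to 53.0 and from 26.0 to 59.7 k. Fibroblast and smooth muscle markers summed to 836 to 1060 k and leukocyte markers to 14.4 to 18.2 k over the 10 libraries. The part of these cell types in the result was not tested.

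The miR-136 arms, miR-434-3p and miR-127-3p varied most clearly between the shared numbers, but no member passed the test. The F test of limma over the 5 numbers, with side as a covariate, called 1.19% of the 588 miRNAs at an adjusted p of 0.05, and 23.3% had an unadjusted p under 0.05. Of the 10 members none was called, and 4 had an unadjusted p under 0.05, namely miR-136-3p, miR-434-3p, miR-127-3p and miR-136-5p. For miR-136-3p the number means spanned 0.96 on the log2 scale, from 11.91 in number 64 to 12.87 in number 68 (limma adjusted p = 0.113). The span fell to 0.29 without number 68. For miR-136-5p the span was 1.004 (limma adjusted p = 0.136), and 0.47 without number 68. For miR-434-3p it was 0.73 between the same 2 numbers (limma adjusted p = 0.119). For miR-127-3p it was 0.53, with number 66 highest at 18.62 (limma adjusted p = 0.129), and 0.15 without number 66. The median span was 0.54 over the members and 0.67 over all miRNAs tested.

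The members did not share a single pattern over the libraries. The number mean of 68 minus that of 64 was 1.004 for miR-136-5p, 0.96 for miR-136-3p, 0.73 for miR-434-3p and 0.70 for miR-337-3p. The same difference was -0.39 for miR-433-3p, -0.35 for miR-431-5p and -0.34 for miR-337-5p. In between were miR-127-5p at 0.44, miR-434-5p at 0.26 and miR-127-3p at 0. These numbers were picked for the contrast after the values were seen, so the differences are a description. The comparison with G and C share that follows, with its cutoffs, was also added after the values were seen, so its correlations are a description too. The 4 members with the largest differences also had the lowest G and C shares, as the sequences above show for the AU-rich miR-136 arms (36.4%), miR-337-3p (40.9%) and miR-434-3p (45.5%). The 3 that stood lower had 54.5% (miR-433-3p and miR-337-5p) and 57.1% (miR-431-5p). miR-127-5p, also at 54.5%, went the other way: it stood higher in number 68, whose eyes were its 2 highest libraries (392 and 375.8). Across the 10 members, of which arms of a hairpin share a source, the correlation of G and C share with this difference was -0.88 (Pearson), and across the 502 miRNAs with a sequence it was -0.37. The median difference was 0.56 for the 83 miRNAs with a G and C share under 40% and -0.28 for the 137 with a share over 55%. The part of base composition in the result was not tested.

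**Figure D4:**
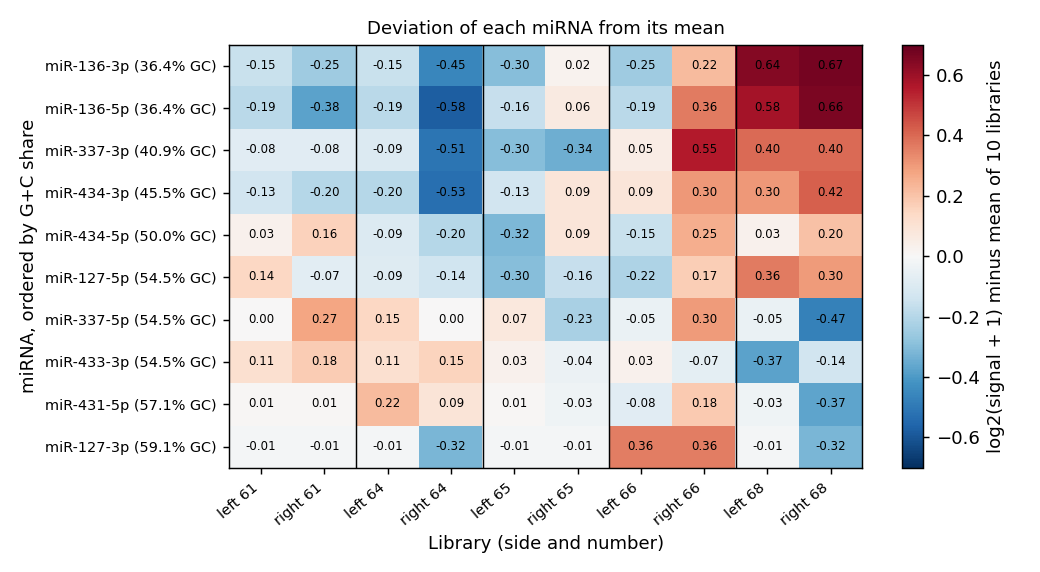
Log2(signal + 1) of each member in each library minus the member's mean over the 10 libraries, with rows ordered by G and C share and columns by number. Both eyes of number 68 are high in the upper 4 rows (0.30 to 0.67), while miR-433-3p is low there (-0.37 and -0.14) and miR-127-3p is high in both eyes of number 66 (0.36).

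The hairpins differed widely in the balance of their arms. The sequences of 2 hairpins are shown, with the mature arms in capitals, because they have the most and the least unequal arms of the 6 (Mir127, chr12:109592846-109592915, and Mir136, chr12:109595327-109595388, plus strand).
Mir127: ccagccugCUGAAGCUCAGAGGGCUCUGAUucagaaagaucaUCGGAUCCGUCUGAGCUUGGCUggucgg
Mir136: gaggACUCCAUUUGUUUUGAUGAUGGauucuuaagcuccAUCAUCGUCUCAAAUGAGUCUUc

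For miR-127 the 3p arm exceeded the 5p arm by 669- to 1532-fold over the 10 libraries, with a median of 1076-fold. Of 158 hairpins with both arms analysed, 13 had a mean ratio over 500-fold in either direction. Hairpins with an arm under a mean of 10 are left out of that count, so it does not show how rare such a tilt is. Left out from the miR-379 to miR-410 cluster were miR-541 (means of 24653 for 5p and 2.19 for 3p) and miR-410 (3438 for 3p and 0.93 for 5p). For miR-136 the 3p arm exceeded the 5p arm by only 1.55- to 1.87-fold. The SD of its log2 ratio over the 10 libraries was 0.09, the lowest of the 158 hairpins, whose median SD was 0.40. Those 158 include hairpins with much lower arms, such as miR-431-3p at a mean of 26.3, and hairpins of like signal were not compared. Rank steps enter here too, as left eyes 61 and 64 had the same value in each miR-136 arm and so the same log2 ratio (-0.81). The arms of miR-136 had a Pearson r of 0.97 over the 10 libraries, and those of miR-127 and miR-337 had -0.14 and -0.04. For miR-127 the rank steps of the 3p arm enter that value.

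For miR-434 the 3p arm was 4.33- to 6.73-fold higher, and for miR-337 the 5p arm was 6.97- to 18.2-fold higher. The partner arms miR-431-3p (15.7 to 41.6) and miR-433-5p (18.5 to 52.1), which are not among the 10, had low signals. With them, the 5p arm of miR-431 was 51.4- to 128-fold higher and the 3p arm of miR-433 was 7.66- to 25.0-fold higher. Among all 158 hairpins the 5p arm led in 90 and the 3p arm in 68, so the 4 hairpins here with a higher 3p arm belong to the less frequent class.

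Right against left, limma called none of these 6 arm ratios and 0% of all 158, and 1.9% had an unadjusted p under 0.05, none of them here. The miR-434 ratio of 5p to 3p was higher in the right eye in 5 of 5 pairs, which held for 3.16% of hairpins. Its log2 values in left eyes were -2.32, -2.37, -2.66, -2.72 and -2.75 in the order of the numbers, and in right eyes -2.11, -2.15, -2.48, -2.53 and -2.69. The sides overlapped, and the difference was 0.17 (95% interval -0.05 to 0.39, limma adjusted p = 0.792). On both sides the ratio was highest in numbers 61 and 64.

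Between numbers, the F test of limma called 10.8% of the 158 hairpins at an adjusted p of 0.05, and 29.7% had an unadjusted p under 0.05. None of the 6 was called, and 3 had an unadjusted p under 0.05. The miR-337 ratio had number means of 3.89 in 61, 4.05 in 64, 3.92 in 65, 3.49 in 66 and 3.01 in 68 on the log2 scale (limma adjusted p = 0.0967). Both eyes of number 68 were the 2 lowest libraries, at 3.23 and 2.8, and without number 68 the span of the means fell from 1.04 to 0.56. The miR-127 ratio spanned 0.88, with both eyes of number 68 least tilted to the 3p arm (limma adjusted p = 0.132), and 0.43 without number 68. The miR-434 ratio spanned 0.51 (limma adjusted p = 0.142). With only the 85 hairpins whose arms both had a mean signal of at least 100, limma called 34.1% of them (29). Of the 3 hairpins here that met this filter, the miR-127 and miR-434 ratios were called, at limma adjusted p = 0.0441 and 0.0197, and that of miR-136 was not. The rank steps of miR-127-3p, which has the same value in both eyes of number 66, enter the miR-127 ratio and its call. Rank steps also enter the miR-434 ratio and its call, as miR-434-3p had only 6 distinct values over the 10 libraries. miR-136, miR-431 and miR-433 did not reach an unadjusted p of 0.05.

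**Figure D5:**
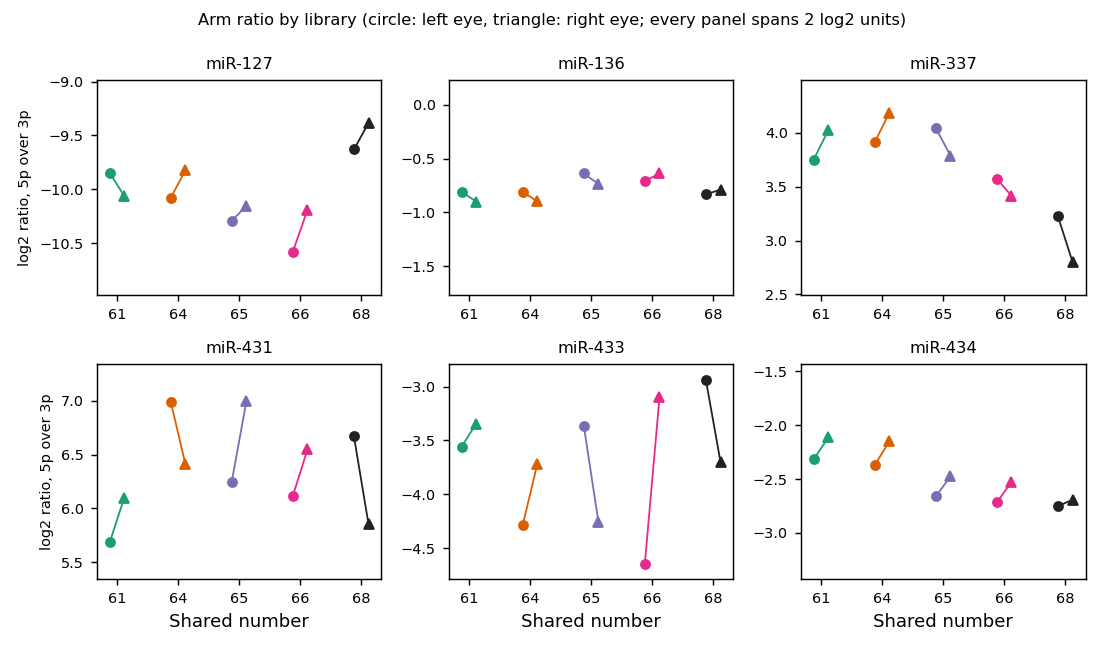
Arm ratio (5p over 3p, log2) of 6 hairpins by shared number, with circles for left and triangles for right eyes, each panel spanning 2 log2 units. miR-136 is nearly flat (-0.90 to -0.64), miR-337 is lowest in number 68, and the right eye lies above the left in all 5 pairs for miR-434.

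Other miRNAs of the same stretch were mostly low. miR-540-3p, whose hairpin lies next to that of miR-337, ranged from 538 to 977 and was lowest in both eyes of number 68 (538 and 593). miR-540-5p ranged from 62.7 to 104, and miR-665-3p stayed at or under 8.91. miRNAs annotated on the strand opposite to the members had low signals. miR-3071-3p and miR-3071-5p, which lie opposite miR-136, were listed at 0 in 8 and 7 of the 10 libraries and reached 2.37 and 1.1. miR-3544-3p, opposite miR-337, was listed at 0 in 1 library and reached 3.4. miR-3544-5p was above 0 in all 10 libraries, at 0.73 to 10.01. The neighbouring Meg3 transcript gave miR-770-3p at 4.4 to 16.8.

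The miR-379 to miR-410 cluster summed to 68899 to 85592 over its 69 listed rows, so miR-127-3p alone exceeded it in every library. Its most abundant members were miR-411-5p at a mean of 35923 and miR-541-5p at 24653. Pairs of members ran from a Pearson r of -0.89 (miR-136-5p with miR-433-3p) to 0.97 (the miR-136 arms), so their mean does not stand for each of them. By the rule for likeness, the mean deviation of the 10 members over the 10 libraries was most like that of miR-144-5p (Pearson r of 0.97). Next came miR-300-3p (0.91), miR-451a (0.88), miR-381-3p (0.87) and miR-410-3p (0.87). Of these 5, miR-300-3p, miR-381-3p and miR-410-3p belong to the miR-379 to miR-410 cluster. The other members of the list, miR-144-5p and miR-451a, come from the red cell cluster miR-144 and miR-451, with mean signals of 426 and 1219. The erythroid sums above (26.0 to 59.7 k) are carried mostly by markers other than miR-451a. They were highest in right eye 66 and lowest in right eye 68, where the mean deviation of the members was 0.26 and 0.14. The part of blood in this likeness was not tested. The pattern of miR-127-3p, with its 3 values, was most like those of miR-18a-3p (0.79), miR-450b-3p (0.78), miR-8114 (0.75), miR-214-3p (0.74) and miR-671-5p (0.72). Imprinted miRNAs of other loci (7 of 10 listed had a mean of at least 10) included none called between sides or numbers. The libraries share numbers and one normalisation, so these correlations describe the 10 libraries and carry no test.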

How the data were processed

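Small RNA libraries (TruSeq kit, per the labels' protocols) were processed, per the submitters' processing notes, with Bowtie and Partek (versions not stated) and the mouse build GRCm38. The authors deposited a normalised signal per mature miRNA; the sources used here do not name its normalisation method. Only 7.31% of values above 0 are whole within 0.001, so reads were not recovered and no count model was used. Values were taken as log2(signal + 1), with a pseudocount of 1, for the 588 miRNAs with a mean of at least 10. With a trend of variance on mean, limma 3.58.1 (R 4.3.3) gave the adjusted p-values, with the shared number as a block for sides and side as a covariate for numbers. Arm ratios were log2 5p minus log2 3p for 158 hairpins. The extract protocol speaks of retinae, and the tissue label was followed. Members, lists and tests were chosen with earlier results of these data known. The rule for named miRNAs took all members, the other miRNAs of the stretch, comparison lists and the 5 nearest patterns (Pearson); the 2 most abundant miRNAs of the miR-379 to miR-410 cluster were named after their values were seen. Other pseudocounts, filters, a fit without trend, without block or side, and leaving out each number were tried. Positions and sequences are from RefSeq GRCm38.p6 and GENCODE M21.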

Additional observations from a re-analysis of the deposited data

Results flagged for a closer look

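Among 32 checks of the 10 miRNAs and 6 arm ratios within a side, 4 values lay far from the other 4 libraries of their side; about 1 in 20 groups is marked by chance, and tied rank steps and arms of one hairpin make the checks unequal. Left eye 66 was apart with the highest miR-127-3p (403594), where the other 4 left eyes share one value. Left eye 68 was apart with the highest miR-136-5p (4145), the highest miR-136-3p (7383) and the lowest miR-433-3p (366). In right eyes the same miRNAs had their extreme in the same number, but none passed the check.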

How the results depend on the processing

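No member and none of their 6 hairpins was called between sides under any alternative run, and limma without the replicate block called 0 miRNAs and 0 arm ratios, as with it. Pairing by number was weak: deviations of same-numbered eyes correlated at 0.12, 0.45, 0.01, -0.13 and 0.28, and for 2 of 5 left eyes the best match was the same-numbered right eye. With one number left out, the right minus left log2 difference ran from -0.048 to 0.10 for miR-127-5p, -0.011 to 0.18 for miR-136-3p, -0.069 to 0.17 for miR-136-5p, -0.12 to 0.12 for miR-337-3p, -0.15 to 0.043 for miR-337-5p, -0.13 to 0.023 for miR-431-5p, -0.016 to 0.069 for miR-433-3p and -0.016 to 0.12 for miR-434-3p. For arm ratios it ran from -0.14 to 0.032 for miR-337, -0.14 to 0.25 for miR-431 and -0.22 to 0.39 for miR-433, and 0 to 1 hairpins of 158 were called (1 without number 61). Between numbers, 7 miRNAs were called, against 0 without trend, 23 with a mean of at least 100, 26 without the side covariate and 0 to 22 with one number left out (0 without 61, 64 or 68, 1 without 65, 22 without 66). Arm ratios gave 17 calls, against 30 with a pseudocount of 10, 0 without a filter, 29 of 85 with a mean of at least 100 (2 of them hairpins of the members) and 0 to 21 with one number left out (4 without 61, 0 without 64 or 68, 2 without 65, 21 without 66). The cause was not tested. No single member was called between numbers in any of these. Unknown depth and rank steps limit what can be seen, most of all for miR-127-3p.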
